A study of Mus musculus with 6 samples.

Results

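The genes described here are 38 genes of the unfolded protein response and the integrated stress response, measured in the soleus of mice without Gα13 in skeletal muscle and of floxed controls. They were given by a list of symbols, and a gene entered when rows of the array carried its symbol and no other. All 38 were measured, among 23152 genes on the array, through 4 probe sets (Phgdh) to 23 probe sets (Hyou1) each. The 3 MKO mice carried Ckmm-Cre and Gna13 flox/flox, and the 3 WT mice carried Gna13 flox/flox without Cre, so both groups had the floxed alleles. All were males of 18 weeks that had fasted overnight for 14 h, with 1 array per mouse of total RNA from whole soleus. Ckmm-Cre is driven by the muscle creatine kinase promoter, which is active in muscle fibres, and the fibroblasts, endothelial cells and macrophages of the same tissue keep Gna13. No mice with Ckmm-Cre but without floxed alleles were measured, so the presence of Cre and the loss of Gna13 cannot be told apart. Gna13 encodes the α subunit of the heterotrimeric G protein G13.

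The unfolded protein response raises folding capacity when unfolded proteins build up in the endoplasmic reticulum (ER). Its sensors IRE1 (Ern1), PERK (Eif2ak3) and ATF6 act through the transcription factors XBP1, ATF4 and ATF6 itself, and their targets include ER chaperones and the machinery that sends misfolded proteins to the proteasome (ER-associated degradation, ERAD). PERK is also one of the kinases that phosphorylate eIF2α, the trigger of the integrated stress response, which lowers general translation and favours ATF4; ATF4 then switches on genes of amino acid synthesis and uptake and of its own feedback. In skeletal muscle these pathways are known to respond to exercise, to nutrient supply and to mitochondrial faults. Much of their signalling runs through splicing, cleavage, phosphorylation and translation, which RNA levels of these genes do not record, and the spliced and unspliced forms of Xbp1 were not told apart here.

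None of the 38 genes passed the adjusted threshold of 0.05 in limma's moderated test (lowest adjusted p = 0.9997), and neither did any other gene on the array (0% of 23152 genes). The differences of these mean array values were small. On the log2 scale the 95% interval of the difference, MKO minus WT, lay within a 2-fold change either way for all 38 genes and within a 1.5-fold change for 36 of them. These intervals bound the mean over a gene's probe sets and may not bound the change of its RNA. Gna13, the deleted gene, had an interval of −0.24 to 0.33 by the same measure. For 28 genes the difference was smaller than its own standard error. The median standard error of the 38 differences was 0.135, against 0.170 over all genes. Of the 38 genes, 28 had a lower mean in MKO than in WT and 10 a higher one, that is 73.7% below 0, against 53.4% of all genes. The median difference was −0.05 over the 38 genes and −0.01 over all genes. Of the 38 genes, 34 lay above the median gene. Among genes above that level alone, 26 of these 34 lay below 0, against 61.6% of all 11576. The medians there were −0.05 and −0.04. The split varied with the setting. After quantile normalization 23 genes lay below 0 and 15 above, or 60.5% below, against 49.7% of all genes. After median centring 25 lay below 0 and 13 above, against 47% of all genes below 0. With array weights 21 lay below 0 and 17 above, or 55.3% below, against 53.6% of all genes.

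**Figure D1:**
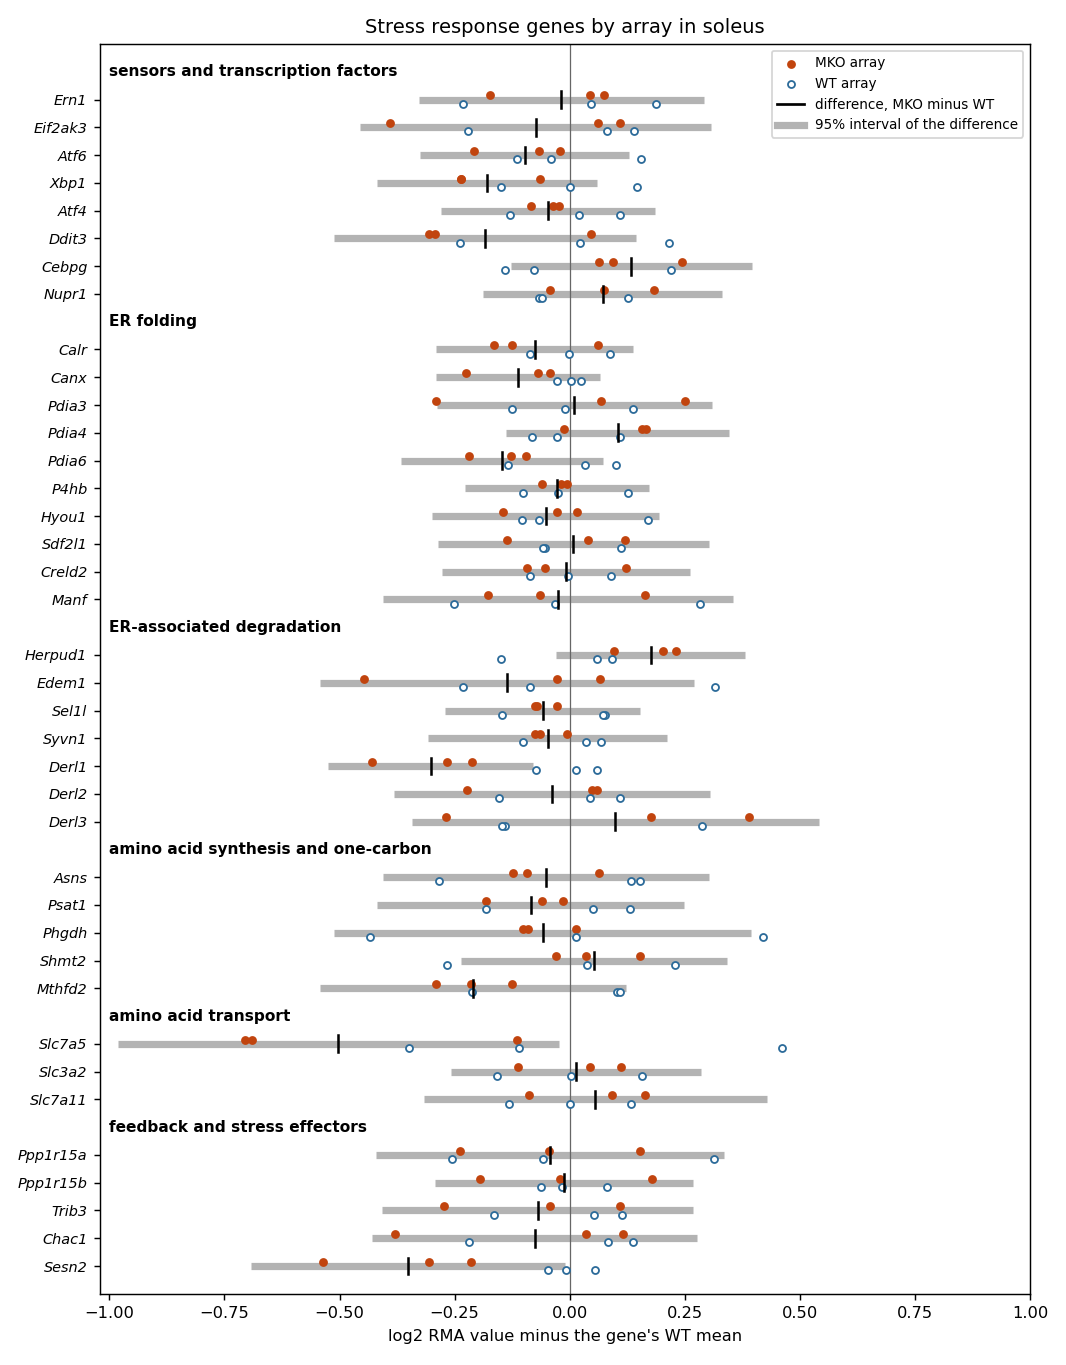
Values of the 38 stress response genes, grouped by role; the x axis gives each array's log2 RMA value minus the gene's WT mean. Filled points are the 3 MKO arrays, open points the 3 WT arrays, the black tick the difference of the means and the grey bar its 95% limma interval. The interval lies wholly below 0 for Derl1, Slc7a5 and Sesn2 and holds 0 for the other 35 genes.

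Counted without regard to role, 3 of the 38 genes had a lower value in MKO at an unadjusted p under 0.05 (Derl1, Slc7a5 and Sesn2), against 2.41% of all genes, and 0 had a higher one, against 1.92% of all genes. The exceptions to overlap were also few. Every MKO array was below every WT array for 3 genes (Canx, Derl1 and Sesn2), against 4.99% of all genes, and above for 1 gene (Herpud1), against 4.26%. The count of 3 genes with a lower value was 1 (Derl1) without MKO replicate 2, without WT replicate 1 or without WT replicate 2. The shares of all genes were then 2.15%, 1.7% and 1.73%. The number that lay below without overlap was 5 without MKO replicate 1, 5 without MKO replicate 3, 6 without WT replicate 1 and 8 without WT replicate 3, where fewer arrays have to be separated. The share of all genes separated at these settings is not given here, so these numbers cannot be judged against it. With 3 mice a group, the smallest two-sided p of an exact permutation test is 0.1. The mean deviation of the 38 genes from their WT means was −0.10, −0.04 and −0.05 on the MKO arrays, against −0.02, 0.07 and −0.05 on the WT arrays, so the groups overlapped.

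The tissue and the arrays were as follows. All 8 markers of slow muscle fibres lay above the median gene (log2 value 4.41), as did 34 of the 38 genes. Of the 7 probe sets of Gna13, number 17257825 had log2 values of 3.43, 4.25 and 4.33 in MKO, against 5.48, 6.23 and 6.16 in WT, a difference of −1.95 (SE 0.42). A further 3 of its probe sets had every MKO array above every WT array (against 4.69% of all 233753 probe sets), and the mean over all 7 differed by 0.04 (SE 0.13), so the gene's mean does not show the deletion. The sources used here do not say which of these probe sets lies in the deleted part. The first principal component of all genes (32.8% of the variance) set MKO replicate 1 apart and the second (20.5%) set MKO replicate 2 apart. Without MKO replicate 1, 25 of the 38 genes lay below 0 and 13 above, and Derl1 lay at −0.24, Sesn2 at −0.26 and Slc7a5 at −0.70. Without MKO replicate 2, 28 lay below 0 and 10 above, and Derl1 lay at −0.32, Sesn2 at −0.38 and Slc7a5 at −0.40. Nothing in the labels names a batch.

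Promoter sequences were examined because the factors of both pathways bind known elements. RefSeq promoter windows of 300 bases (250 before to 50 after the start, GRCm38.p6) were found for 32 of the 38 genes; no window was used for Atf6, Hyou1, Manf, Derl1, Slc7a5 and Ppp1r15b. They were searched on both strands. The ER stress response element, bound by ATF6 and XBP1 with the factor NF-Y, was taken as CCAAT and CCACG separated by 9 bases. Other spacings or arrangements of its parts were not searched, so a gene without a match is not shown to lack such an element. The form searched was present in 6 of 32 genes (18.8%), against 0.137% of the 27025 genes with a window. Capitals mark both parts of the element in these 6 sites, each shown 5′ to 3′ on the gene's strand with 10 bases on either side; where it lies on the opposite strand the capitals read CGTGG and ATTGG.
Calr (chr8:84847065-84847103, minus strand): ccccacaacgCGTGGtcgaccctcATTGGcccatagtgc
Derl3 (chr10:75893232-75893270, plus strand): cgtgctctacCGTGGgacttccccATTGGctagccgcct
Canx (chr11:50325790-50325828, minus strand): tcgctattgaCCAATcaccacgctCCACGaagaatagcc
Creld2 (chr15:88819510-88819548, plus strand): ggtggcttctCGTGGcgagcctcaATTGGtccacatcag
Pdia6 (chr12:17266481-17266519, plus strand): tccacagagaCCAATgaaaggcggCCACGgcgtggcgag
Syvn1 (chr19:6046522-6046560, plus strand): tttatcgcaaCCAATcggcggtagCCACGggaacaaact
These are 4 genes of ER folding and 2 of ERAD. In MKO minus WT, 5 of the 6 genes had a difference below 0, from −0.15 (Pdia6) to −0.01 (Creld2), and Derl3 lay at 0.10, with none past the threshold.

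The C/EBP-ATF composite element, bound by ATF4 with a C/EBP partner, was taken as TGATGNAA. It was found in 6 of 32 genes (18.8%), against 4.51% of all genes with a window. Capitals mark the element in the 7 sites that follow, with the same flanks. Those that begin TT within the capitals lie on the opposite strand.
Asns (chr6:7693215-7693242, minus strand): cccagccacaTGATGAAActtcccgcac
Chac1 (chr2:119351039-119351066, plus strand): ttccctgccgTTGCATCActcctgccag
Herpud1 (chr8:94386307-94386334, plus strand): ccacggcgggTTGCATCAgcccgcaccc
Nupr1 (chr7:126625563-126625590, minus strand): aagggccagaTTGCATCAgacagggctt
Slc7a11, first site (chr3:50443662-50443689, minus strand): ctcatgtggcTGATGCAAacctggagaa
Slc7a11, further site (chr3:50443643-50443670, minus strand): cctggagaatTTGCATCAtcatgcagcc
Trib3 (chr2:152344029-152344056, minus strand): tagctcaggtTTACATCAgccgggcggg
The RNA differences of these 6 genes ran from −0.08 (Chac1) to 0.18 (Herpud1), with 3 below 0 and 3 above. Another element, TGACGTGG, which XBP1 and ATF6 can bind, was in no window of the 32 genes and in 0.714% of all genes; the motifs do not overlap one another in any of these windows. A match is a description of the letters and was not tested as a binding site.

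**Figure D2:**
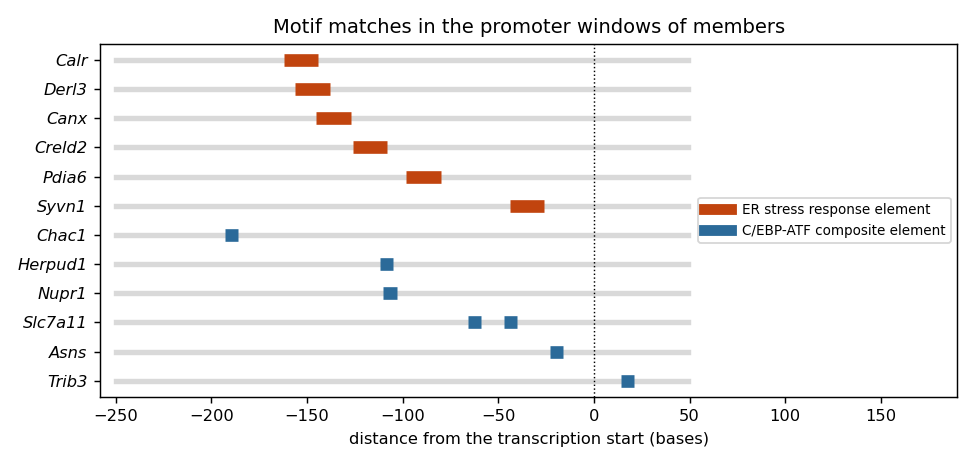
Position of the element matches in the promoter windows of the 12 genes that hold one; the x axis is the distance in bases from the annotated transcription start, and grey bars are the windows of 300 bases. The ER stress response elements (orange) begin between positions −162 and −44 from the start, and the C/EBP-ATF composite elements (blue) between positions −193 and 14.

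The arrays of the groups overlapped for all 8 sensors and transcription factors. Ern1, the IRE1 kinase and nuclease that splices Xbp1 mRNA, had log2 values of 6.06, 5.82 and 6.03 in MKO, against 6.18, 6.04 and 5.76 in WT (−0.02, SE 0.14). Eif2ak3, which encodes PERK, had 4.43, 4.89 and 4.93 in MKO, against 4.91, 4.96 and 4.60 in WT (−0.07, SE 0.18). Atf6, the sensor that is cut in the Golgi to free a transcription factor, had 7.76, 7.90 and 7.95 in MKO, against 7.92, 8.12 and 7.85 in WT (−0.10, SE 0.10). For all 3 sensors the groups' ranges of these gene means overlapped, and the lowest array of Eif2ak3 and of Atf6 was MKO replicate 1. The probe sets of Eif2ak3 differed in direction, as given below.

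Of the transcription factors, Xbp1 had log2 values of 7.55, 7.38 and 7.38 in MKO, against 7.47, 7.76 and 7.62 in WT, a difference of −0.18 (SE 0.11, 95% interval −0.42 to 0.06). MKO replicates 2 and 3 lay below every WT array and MKO replicate 1 lay above the lowest one; without WT replicate 2 the difference was −0.11. Its 11 probe sets differed in direction: 3 had every MKO array below every WT array (against 5.21% of all probe sets), the lowest difference being −1.45 at the dim probe set 17246971, and 1 had every MKO array above every WT array, at 0.49. Atf4, the main effector of the integrated stress response, had 7.09, 7.14 and 7.15 in MKO, against 7.28, 7.19 and 7.04 in WT (−0.05, SE 0.11), with the MKO values inside the WT range. Ddit3, which encodes CHOP, a factor of prolonged ER stress, had 5.85, 6.20 and 5.86 in MKO, against 6.18, 6.37 and 5.92 in WT (−0.18, SE 0.15); the ranges overlapped, although all 5 of its probe sets had a difference below 0, and without WT replicate 2 the gene lay at −0.08. Cebpg, a C/EBP partner of ATF4, differed by 0.13 (SE 0.12), and Nupr1, a small stress-induced chromatin protein, by 0.07 (SE 0.12). Over the 8 genes the median difference was −0.06, with 6 below 0.

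The 10 genes of ER folding differed by −0.15 to 0.10, with a median of −0.03 and 7 below 0. The 2 lectin chaperones that hold glycoproteins during folding are Canx, the membrane-bound calnexin, and Calr, the soluble calreticulin. Canx had log2 values of 9.07, 8.88 and 9.04 in MKO, against 9.08, 9.13 and 9.11 in WT. Every MKO array of Canx lay below every WT array. The highest MKO value lay just under the lowest WT value, and the difference of −0.11 (SE 0.08) had an adjusted p of 0.9997 in limma. Without MKO replicate 2 it was −0.06, and after quantile normalization or median centring the groups of Canx overlapped. Of the 16 probe sets of Canx, 13 lay below 0, with a range of −0.43 to 0.07 over all 16. Calr differed by −0.08 (SE 0.10).

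The protein disulfide isomerases, which form and rearrange disulfide bonds, lay on both sides of 0: Pdia6 at −0.15 (SE 0.10) and P4hb at −0.03 (SE 0.09), Pdia3 at 0.01 (SE 0.14) and Pdia4 at 0.10 (SE 0.11). Without WT replicate 2, Pdia6 lay at −0.10. P4hb is also the β subunit of collagen prolyl 4-hydroxylase. Hyou1, a large HSP70-like chaperone, differed by −0.05 (SE 0.11), and Sdf2l1, a partner of ER-resident DNAJ proteins, by 0.01 (SE 0.14). Creld2 and Manf, both small proteins induced by ER stress and partly secreted, lay at −0.01 (SE 0.12) and −0.03 (SE 0.18). Hspa5 (BiP) and Hsp90b1 (GRP94), the most abundant ER chaperones and widely used markers of the response, were not among the 38 genes. Hspa5 had 7.65, 7.31 and 7.39 in MKO, against 7.32, 7.64 and 7.43 in WT (−0.01, SE 0.12), and Hsp90b1 differed by 0.03 (SE 0.08). The 95% interval of Hspa5 ran from −0.28 to 0.25.

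ERAD held the gene with the smallest p of the 38. Derl1 encodes Derlin-1, a membrane protein of the channel through which misfolded proteins leave the ER. Its log2 values were 7.30, 7.46 and 7.52 in MKO, against 7.66, 7.74 and 7.79 in WT. All MKO arrays lay below all WT arrays, by a mean of −0.30 (SE 0.10, 95% interval −0.52 to −0.08), which is 1.23-fold lower, with an adjusted p of 0.9997 in limma. Derl1 ranked 247th of all genes by p. With the median in place of the mean of its probe sets, the difference was −0.16 and the arrays of the groups overlapped. Of its 10 probe sets, 9 lay below 0 and 3 had every MKO array below every WT array (against 5.21% of all probe sets), the lowest being 17317207 at −0.82 (SE 0.28), with values of 5.42, 5.39 and 5.87 in MKO, against 6.60, 6.38 and 6.16 in WT. Of its paralogues, Derl2 lay at −0.04 (SE 0.16) and Derl3, whose signal was below the median gene, at 0.10 (SE 0.20). Whether the 3 Derlin genes differ from one another in response was not tested.

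Herpud1, a membrane protein that assembles ERAD complexes and is a target of both ATF4 and ATF6, was the only one of the 38 genes with every MKO array above every WT array. It had 8.66, 8.68 and 8.55 in MKO, against 8.55, 8.30 and 8.51 in WT. The lowest MKO and the highest WT value were almost equal, and the difference was 0.18 (SE 0.09, adjusted p = 0.9997 in limma). Its probe sets lay above 0 in 10 of 11 cases, 3 of them with no overlap between the groups (against 4.69% of all probe sets), and without WT replicate 2 the difference was 0.10. After quantile normalization and with the median of probe sets the arrays of Herpud1 overlapped, and Pdia4 was then the gene with every MKO array above. The other ERAD genes overlapped between the groups. Sel1l and Syvn1, adaptor and ubiquitin ligase of the HRD1 complex, differed by −0.06 (SE 0.10) and −0.05 (SE 0.12), and Edem1, which trims mannose from misfolded glycoproteins, by −0.14 (SE 0.19). Over the 7 ERAD genes 5 lay below 0, with a median of −0.05.

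**Figure D3:**
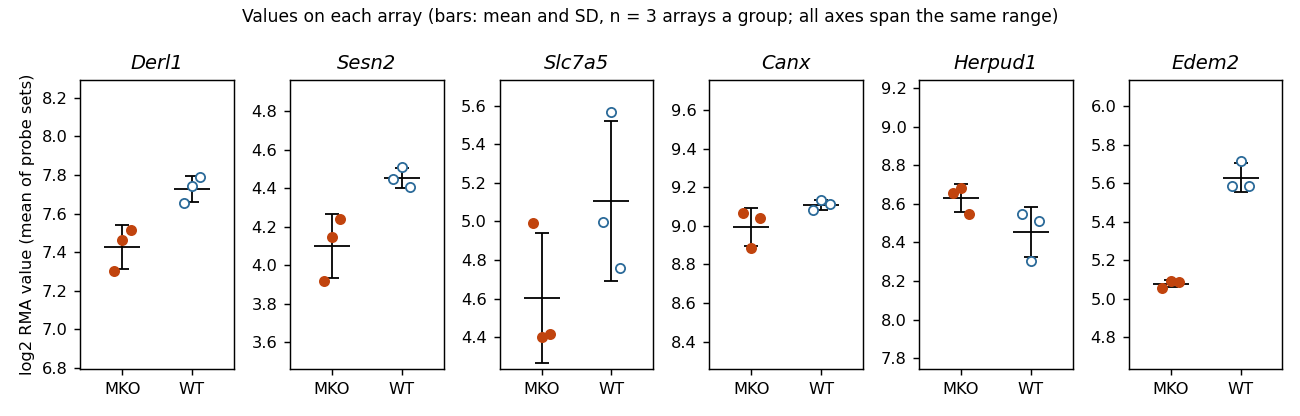
Log2 RMA values of Derl1, Sesn2, Slc7a5, Canx, Herpud1 and Edem2 on each array, MKO left and WT right; points are mice, and bars are group means with the SD (n = 3 each). The groups do not overlap for Derl1, Sesn2, Canx, Herpud1 and Edem2, and they overlap for Slc7a5.

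Among the genes that ATF4 drives for amino acid supply, the 5 of synthesis and one-carbon metabolism had a median difference of −0.06 with 4 below 0. Asns, asparagine synthetase, lay at −0.05 (SE 0.16). Phgdh and Psat1, the first steps of serine synthesis, lay at −0.06 (SE 0.21) and −0.09 (SE 0.15). Shmt2 and Mthfd2, mitochondrial enzymes of the folate cycle that are known to rise in muscle with mitochondrial disease, lay at 0.05 (SE 0.13) and −0.21 (SE 0.15). Mthfd2 had 4.55, 4.62 and 4.71 in MKO, against 4.94, 4.95 and 4.63 in WT, so WT replicate 3 fell inside the MKO range; 9 of its 11 probe sets lay below 0. Taken as the median over its probe sets, Mthfd2 differed by −0.58, and its unadjusted p was then under 0.05.

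Of the 3 amino acid transporter genes, 1 lay below 0. Slc7a5 encodes LAT1, the importer of leucine and other large neutral amino acids, and had the largest difference of the 38 genes. Its values were 4.99, 4.40 and 4.42 in MKO, against 4.996, 5.57 and 4.76 in WT. MKO replicate 1 lay above WT replicate 3 and almost at WT replicate 1, and WT replicate 2 was the highest array. The difference was −0.50 (SE 0.22, 95% interval −0.98 to −0.02), with adjusted p = 0.9997 in limma. It rested in part on 1 of 10 probe sets, 17513653, with values of 4.37, 1.62 and 1.91 in MKO, against 5.10, 5.29 and 4.62 in WT; without it the mean difference was −0.30. Without WT replicate 2 the difference was −0.27, and over probe sets above the median level it was −0.19. Slc3a2, the heavy chain that LAT1 needs at the cell surface, lay at 0.01 (SE 0.13). Slc7a11, the light chain of the cystine importer, had a signal below the median gene and lay at 0.06 (SE 0.17).

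The 5 genes of feedback and stress effectors all had a lower mean in MKO than in WT, with a median of −0.07, and only Sesn2 stood clear of its standard error. Sesn2 encodes sestrin 2, a leucine sensor and inhibitor of mTORC1 that ATF4 and p53 induce. It had 3.92, 4.15 and 4.24 in MKO, against 4.45, 4.51 and 4.41 in WT. Every MKO array was below every WT array, with a difference of −0.35 (SE 0.16, 95% interval −0.69 to −0.01, adjusted p = 0.9997 in limma). Its mean signal lay below the median gene, and 10 of its 13 probe sets lay below 0, from −1.29 to 0.61 over all 13. Over probe sets above the median level alone the difference was −0.08 (SE 0.16).

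Ppp1r15a and Ppp1r15b, the regulatory subunits that bring protein phosphatase 1 to eIF2α and end the response, lay at −0.04 (SE 0.17) and −0.01 (SE 0.13). Trib3, a pseudokinase that restrains ATF4 and CHOP, lay at −0.07 (SE 0.16). Chac1, which breaks down glutathione, lay at −0.08 (SE 0.16). For these 4 genes the difference was less than its standard error.

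The 471 probe sets of the 38 genes were also fitted one by one among 233753. None passed the adjusted threshold (0% of all probe sets). Probe sets of 1 gene share its RNA and are no replicates. The lowest difference of the 471 was −2.36, in Slc7a5. Probe sets of Eif2ak3 ran from −1.93 to 1.48, around a gene mean of −0.07. Of its 21 probe sets, 2 had every MKO array below every WT array and 2 had every MKO array above. The shares of all probe sets were 5.21% and 4.69%. The lowest, 17459428, had 3.76, 3.51 and 3.74 in MKO, against 5.13, 5.64 and 6.03 in WT (SE 0.41).

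**Figure D4:**
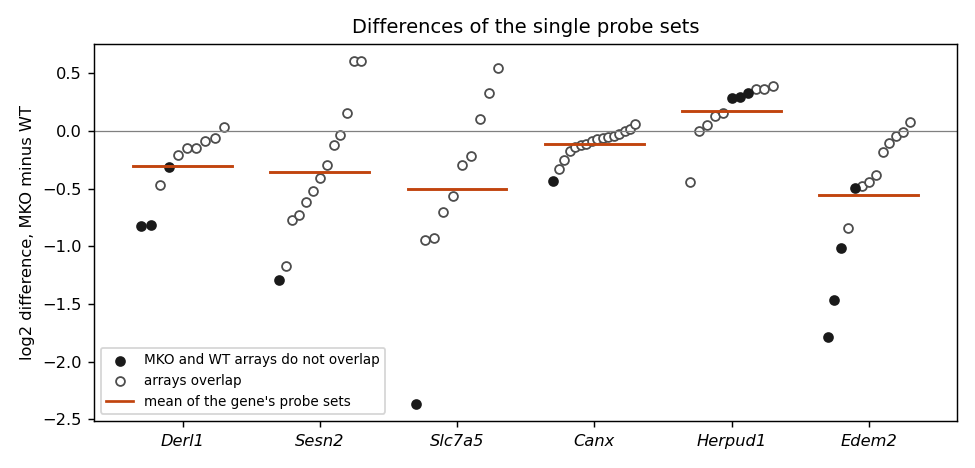
Log2 difference, MKO minus WT, of each probe set (points) of the same 6 genes; filled points have no overlap between MKO and WT arrays, and the orange line marks each gene's mean. Derl1 has 9 of 10 probe sets below 0 and Herpud1 10 of 11 above 0, while Slc7a5 spans −2.36 to 0.55 and Sesn2 −1.29 to 0.61.

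Other genes of both pathways, 129 on 7 lists, of which 126 were measured, also lay near 0: 83 below and 43 above (65.9% below), with a median of −0.05. Over all genes 53.4% lay below 0, with a median of −0.01. Above the median gene, where 115 of the 126 lay, 61.6% of all genes were below 0, with a median of −0.04. At an unadjusted p under 0.05, 2 of the 126 were lower and 2 higher in MKO, against 2.41% and 1.92% of all genes, and none passed the adjusted threshold. Every MKO array was below every WT array for 12 of the 126 and above for 4, against 4.99% and 4.26% of all genes. The 17 other ERAD genes had a median of −0.09 with 13 below 0. Edem2, which makes the first mannose cut on misfolded glycoproteins, had 5.06, 5.09 and 5.09 in MKO, against 5.58, 5.72 and 5.59 in WT. The MKO arrays of Edem2 lay close together and all below WT, by −0.55 (SE 0.13, adjusted p = 0.9504 in limma), the 23rd smallest p of all genes. Of its 13 probe sets 12 lay below 0 and 4 did not overlap (against 5.21% of all probe sets), but over probe sets above the median level the difference was −0.16 (SE 0.12). Erlec1, an ER lectin of the HRD1 complex, lay at −0.23 (SE 0.12), at −0.15 without WT replicate 2 and at −0.04 with the median of its probe sets.

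In the other lists the genes with the smallest p lay on both sides of 0. Among 21 other chaperones and oxidoreductases (17 below 0, median −0.05), Ero1lb, an oxidase that recharges protein disulfide isomerases, lay at 0.31 (SE 0.16) and Txndc5, a disulfide isomerase, at −0.18 (SE 0.14). Txndc5 lay at −0.08 without MKO replicate 3, at −0.32 without MKO replicate 2 and at 0.11 with the median of its probe sets. Among 21 genes of ER translocation and export (11 below 0, median −0.02), Srp54a, a subunit of the signal recognition particle, lay at 0.53 (SE 0.18) from 1 probe set, with every MKO array above every WT array, and Spcs2, a signal peptidase subunit, at −0.36 (SE 0.17). Without MKO replicate 1, Spcs2 lay at −0.12. The list of 16 other sensors and signalling genes (10 below 0, median −0.08) held Tnfrsf10b, a death receptor that CHOP induces, at −0.49 (SE 0.19) with every MKO array below every WT array, and Wfs1, the ER membrane protein wolframin, at −0.16 (SE 0.08). Tnfrsf10b was dim, with mean log2 values of 3.98 in MKO and 4.46 in WT, against 4.41 for the median gene. Every MKO array was also above every WT array for Ero1lb, and below for Spcs2 and Wfs1.

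Among 14 genes of the eIF2 kinases, eIF2 and eIF2B (10 below 0, median −0.05), Eif2ak1, the kinase that responds to haem loss and mitochondrial stress, lay at −0.28 (SE 0.14). Eif2s3x, the γ subunit of eIF2, lay at −0.26 (SE 0.16) from 1 probe set. Eif2ak1 lay at −0.13 without MKO replicate 1. Eif2s3x lay at −0.09 without WT replicate 1, at −0.14 without MKO replicate 2, at −0.40 without MKO replicate 3 and at −0.41 without WT replicate 3. Among 24 other ATF4 targets (14 below 0, median −0.03) the genes with the smallest p were Ddit4 and Slc1a5. Ddit4 encodes REDD1, an inhibitor of mTORC1 that fasting and glucocorticoids also induce. It had 6.80, 6.88 and 7.26 in MKO, against 6.25, 6.19 and 7.001 in WT, a difference of 0.50 (SE 0.20, adjusted p = 0.9997 in limma), and WT replicate 3 lay inside the MKO range; without that array the difference was 0.76. Slc1a5, the glutamine importer ASCT2, lay at −0.38 (SE 0.18), and at −0.22 without MKO replicate 3. Among 13 aminoacyl-tRNA synthetases of the ATF4 programme (8 below 0, median −0.01), Wars lay at −0.20 (SE 0.11) and Eprs at −0.11 (SE 0.11). For Wars every MKO array was below every WT array. Without MKO replicate 1, Wars lay at −0.13 and Eprs at 0.02.

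**Figure D5:**
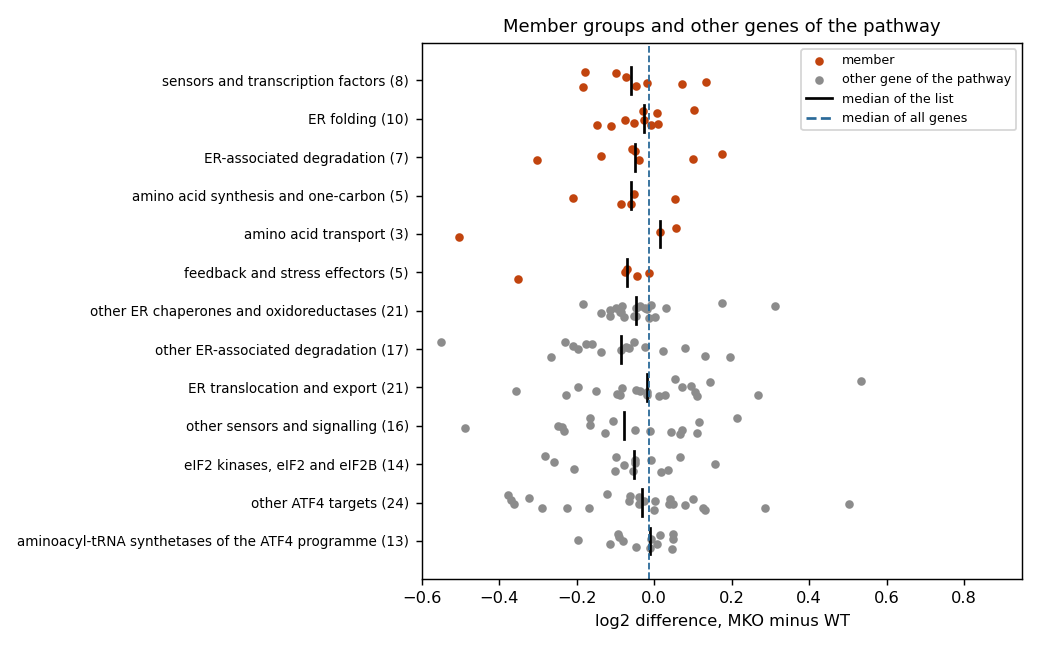
Log2 difference, MKO minus WT, of each gene (points) in the 6 role groups of the 38 genes (orange) and in the 7 lists of other pathway genes (grey), with the number of measured genes in brackets. Black ticks are list medians and the dashed line is the median of all genes; list medians lie between −0.09 and 0.01.

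Whole soleus holds several cell types, and in such samples fewer cells of a type and less RNA per cell cannot be told apart. Marker lists of other cell types were therefore set beside the 38 genes. Fibroblast markers lay below 0 in 9 of 10 cases, with a median of −0.30 and a summed linear signal of 2509 to 3329 in MKO, against 2912 to 3664 in WT. Endothelial markers lay below 0 in 8 of 8 cases, with a median of −0.17 and a sum of 1047 to 1290 in MKO, against 1097 to 1472 in WT. Macrophage markers lay below 0 in 9 of 10 cases, with a median of −0.14 and a sum of 306 to 356 in MKO, against 360 to 430 in WT. The sums overlapped between the groups for fibroblasts and endothelial cells, but not for the 10 macrophage markers. When Cd68 was left out the macrophage sums overlapped (268 to 308 in MKO, against 279 to 349 in WT), a sum chosen after the values were seen. Tenocyte markers lay below 0 in 5 of 6 cases (median −0.11, sums of 1010 to 1042 in MKO, against 967 to 1344 in WT).

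The slow fibre markers had a median of −0.03, with 5 of 8 below 0 and sums of 10730 to 11680 in MKO, against 10580 to 12300 in WT. B and plasma cells, which carry a large ER, were represented by 7 measured markers, of which 2 lay above the median gene, with 1 of 7 below 0 and a median of 0.12 (sums of 94.0 to 120 in MKO, against 96.0 to 105 in WT). Satellite cell markers lay below 0 in 3 of 6 cases (sums of 400 to 424 in MKO, against 402 to 440 in WT). Adipocyte markers did so in 3 of 6 cases (191 to 397 in MKO, against 210 to 316 in WT). Smooth muscle and pericyte markers did so in 4 of 6 cases (1145 to 1314 in MKO, against 1168 to 1328 in WT). Of the 4 measured Schwann cell markers 1 lay below 0 (149 to 212 in MKO, against 165 to 173 in WT). No marker can be read as absent, since an RMA value has no true zero. The part of these cells in the differences of the 38 genes was not tested.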

How the data were processed

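RNA of the soleus of 3 MKO and 3 WT male mice was measured on Affymetrix Mouse Gene 2.0 ST arrays, 1 per animal. The authors deposited values on the log2 scale, obtained by RMA (robust multi-array averaging) with Affymetrix Expression Console, per the submitters' processing notes. RMA corrects background, equalises arrays and summarises the probes of a probe set. The sources used here give no versions, genome build or annotation release. The design text speaks of gene-level values, but the table holds several rows per gene. Of 269751 rows, 233753 carried 1 gene symbol, 5106 several and 30892 none, per the platform annotation. A gene's value was the mean of its 1-symbol rows on each array. The median row lay between 4.87 and 4.95 on every array, and the number of arrays limits the precision.

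Differences, MKO minus WT, came from limma 3.58.1 under R 4.3.3 (lmFit, eBayes with a variance trend), with two-sided p-values adjusted after Benjamini and Hochberg over the 23152 genes at a threshold of 0.05; all adjusted p-values come from it. The labels call the arrays biological replicates. No pairing is named in the labels, and the main fit used none. The deviations of same-numbered arrays from their group means correlated at −0.09, 0.09 and −0.24. With 3 arrays a group these values cannot settle whether mice were paired. All 38 symbols were also current RefSeq symbols. From lists of other pathway genes the 2 genes with the smallest p were named; values of every array were to be printed for those of the 38 genes with an unadjusted p under 0.05 or separated groups and for the main sensors and factors. Array values of Mthfd2, Hspa5, Edem2 and Ddit4 were added after they were seen. The genes, lists and tests were chosen with earlier results of these data known. Fits were tested on simulated data. Promoters came from RefSeq. Python 3.11.15 with pandas 2.3.3 and matplotlib 3.10.9 prepared tables and figures.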

Additional observations from a re-analysis of the deposited data

How the results depend on the processing

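Alternatives to the limma fit used a replicate block, array weights, robust moderation, no variance trend, median centring, quantile normalization, the median of probe sets, genes above the median level only, a re-implemented local pooled error test (the test the labels name), each array left out in turn and, chosen after seeing the data, probe sets above the median level only. None of the 38 genes passed the adjusted threshold under any of them, and the lowest adjusted p was 0.521 (Slc7a5, array weights). Of all genes, 25 passed with the local pooled error test, 1 each with array weights, without WT replicate 1 and without WT replicate 3, and 0 otherwise. The genes with a difference above 0 numbered 17 with array weights and 16 with the median of probe sets, and 9 to 16 with an array left out; those below 0 numbered 22 to 29 with an array left out. The genes lower at an unadjusted p under 0.05 numbered 1 with quantile normalization, median centring, the local pooled error test and probe sets above the median level, and 1 to 2 with an array left out. The shares of all genes were 2.48%, 1.53%, 1.9% and 2.58% in that order, and 1.7% to 4.21% with an array left out. Herpud1 was higher at that p with quantile normalization, the only such gene of the 38 (1), against 2.52% of all genes. Arrays lay apart on the low side for 5 genes with probe sets above the median level and for 4 to 8 with an array left out, and on the high side for 1 to 2. The shares of all genes separated at these settings are not given here, so these counts cannot be judged against them. The replicate block left 2 of the 3 genes lower at an unadjusted p under 0.05 (Derl1 and Slc7a5), against 2.05% of all genes. It changed no other count. Derl1 was under that p in every alternative except the median of probe sets and the local pooled error test. Of the 38 genes, 22 changed sign under at least 1 alternative, and each of these 22 had a difference smaller than its standard error. The median over all genes stayed between −0.04 and 0.01. The cause of these shifts was not tested. Signal over background limits the dim genes, since 4 of the 38 lay below the median gene, and no detection call was used here.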
